A study of Sus scrofa with 6 samples.

Results

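Fibroblasts and the mesenchyme from which they arise lay down the extracellular matrix around developing muscle. Cells of the pig embryo with more counts than average over 10 genes that mark them are described here; they are named by this rule and not as a cell type, since markers left out of the choice stood at only 1.14 to 1.46 times the rest and members of the earliest stage held muscle windows at nearly the level of the rest. The cells were picked from single-cell ATAC-seq data, in which the Tn5 transposase cuts accessible DNA and every cut carries a cell barcode. A barcode was a member when it held 2000 to 30000 cut-site counts in peaks, when at least 4 of 10 marker gene windows held a count, and when the counts of these windows together reached at least 2 times the share expected from the mean over the 6 libraries. The markers were PDGFRA, PRRX1, TWIST1, TWIST2, COL1A1, COL1A2, COL3A1, OSR1, DPT and TNFAIP6, and a window ran from 2 kb before a gene's start to its end. The rule found 2564 members among 58809 barcodes within the count limits (4.36%), of 64439 deposited barcodes. All other kept barcodes, 56245 in number, are called the rest.

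Each of the 6 libraries was 1 combination of stage and breed, made from a pool of 5 embryos of a single sow. Somites, blocks of paraxial mesoderm that later form muscle, dermis and vertebrae, were sampled at embryonic day 18 (E18) and day 21 (E21), and myotomes, their muscle-forming part, at day 28 (E28). The breeds were Tibetan pigs (ZZ) and Duroc x Tibetan crosses (DZ), and the embryos carried no engineered allele and received no treatment named in the labels. No stage and breed had a second library, tissue and age changed together at E28, and the peaks of a library, called on that library alone, covered from 102170976 bp (E28 ZZ) to 191151269 bp (E18 ZZ).

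As background, embryonic mesenchyme expresses transcription factors such as TWIST1, PRRX1 and OSR1, and responds to platelet-derived growth factor through PDGFRA. Its fibroblasts then secrete fibrillar collagens (COL1A1, COL1A2, COL3A1), dermatopontin (DPT), which binds collagen fibres, and TNFAIP6, which modifies hyaluronan. In limb and trunk these cells surround the muscle masses and supply them with matrix and growth factors.

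Members were found in every library and made up a larger share of cells at the later stages. They numbered 250 of 11243 cells in E18 ZZ (2.22%, exact 95% binomial interval 1.96% to 2.51%) and 187 of 10073 in E18 DZ (1.86%, 1.6% to 2.14%). At E21 they numbered 361 of 9286 in ZZ (3.89%, 3.50% to 4.30%) and 511 of 9347 in DZ (5.47%, 5.01% to 5.95%). At E28 there were 740 of 9410 in ZZ (7.86%, 7.33% to 8.43%) and 515 of 9450 in DZ (5.45%, 5.00% to 5.93%). The E18 libraries were thus the lowest in both breeds, and E21 DZ and E28 DZ did not differ beyond counting error. When every cell was thinned to 3000 fragments, which left out 1179 to 3018 cells of a library, the shares of ZZ were 4.75%, 5.87% and 10.1% in order of stage, and those of DZ 3.75%, 7.82% and 8.65%. These intervals cover counting error alone, and with 1 library per stage and breed no test of the share was made. The rule measured every library against 1 common mean share, so the order of the libraries is in part the order of their total marker share, which ran from 0.0681% of counts in E18 DZ to 0.0951% in E28 ZZ. The same kind of rule on 14 housekeeping windows was met by 2.44% and 2.003% of the rest at E18 (ZZ and DZ). At E21 it was met by 4.11% and 3.87% of the rest, and at E28 by 5.37% and 5.73%. On 11 epithelial windows the share of the rest fell, from 14.04% and 13.6% at E18 to 1.18% and 1.03% at E28. A rise with stage was thus not limited to the marker windows, and its cause was not tested.

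**Figure D1:**
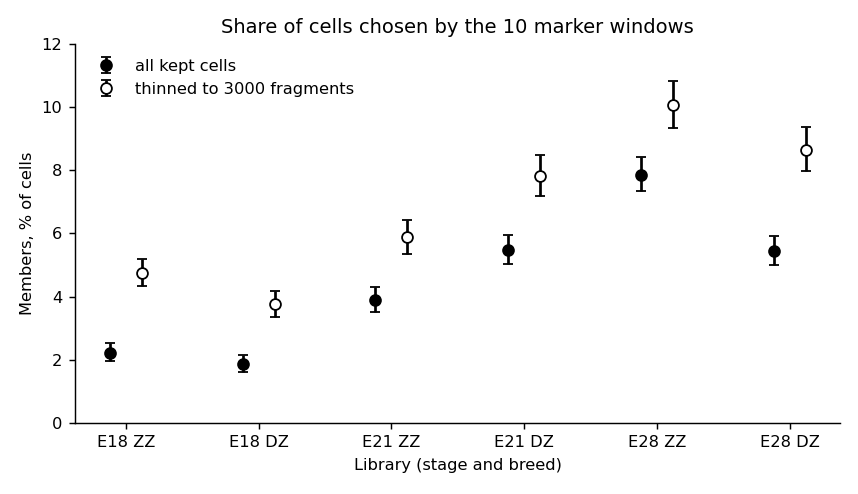
Share of cells that met the rule in each of the 6 libraries, in percent of kept cells, with exact 95% binomial intervals; filled circles show all kept cells and open circles the cells thinned to 3000 fragments. The 2 E18 libraries sit lowest in both series, at 2.22% and 1.86% unthinned, and E28 ZZ sits highest at 7.86%.

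The marker values that chose the cells are given as a description. The 10 windows took 0.189% to 0.199% of the members' counts in a library, against 0.0661% to 0.0858% of the counts of the rest. The median member had a count in 5 windows and the median cell of the rest in 2, at median totals of 9642.5 and 10115 counts. Near the limits of the rule, 853 members lay between 2 and 2.2 times the mean share while 1360 other cells with at least 4 windows lay between 1.8 and 2 times, and 921 members had exactly 4 windows while 1049 other cells at 2 times or more had exactly 3. In all, 16610 cells of the rest had at least 4 windows with a count, and of these the 1360 named above lay between 1.8 and 2 times the mean share. The rest thus holds cells near the limits of the rule. Only 3 members had a count in all 10 windows.

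The windows did not weigh alike in the choice. OSR1, a zinc-finger factor of connective tissue precursors, had a count in 93.9% to 98.4% of members and gave 34.3% to 38.4% of their marker counts, whereas TNFAIP6 had a count in 9.63% to 27.8% and gave 0.982% to 3.32%. In the RefSeq annotation of Sscrofa11.1 the OSR1 gene spans chr3:118368471-118765107, a length of 397 kb, although its coding part occupies only chr3:118762767-118764315. The region over the coding part held 2.06 times the counts in members, relative to class totals, and a region inside the long model at chr3:118550209-118554955 held 3.02 times. Of the shared regions in the OSR1 window, 1 overlapped the coding part, and the comparisons across all windows and regions below were repeated with members chosen by the other 9 markers, an alternative added after the data had been seen. The tests of single markers in the next paragraph were not, and OSR1 took part in 9 of their 10 choices.

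To ask whether cells with open markers were open at a marker that had no part in their choice, members were chosen 10 times by 9 markers and compared with the rest at the marker left out. Counts were summed per library and class and tested in edgeR (quasi-likelihood, blocked by library), and p was adjusted over all windows of each fit by the Benjamini-Hochberg method. All 10 markers were higher in members in 6 of 6 libraries, and 9 of 10 passed the threshold of 0.05, where between 3.41% (without DPT) and 4.31% (without TWIST2) of all windows were called higher in the same fits. The folds were small, between 1.14 for TWIST1 and 1.46 for TNFAIP6, next to the 2-fold excess that the rule asks for.

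COL3A1, the collagen of loose connective tissue, had the lowest adjusted p of the 10 markers in these fits. Values are given as CPM, counts scaled to a common class total, and library by library in order of stage with ZZ before DZ. The COL3A1 window held 36.1, 27, 43.8, 52.4, 53.7 and 64.1 CPM in members and 23.6, 20.3, 27.9, 31.1, 45.3 and 49.2 CPM in the rest. Members were above the rest in each library, while the ranges of both classes overlapped because both rose with stage (log2 fold change 0.53 ± 0.08 SE, adjusted p = 1.62e-05, edgeR). PDGFRA, the receptor that marks most early fibroblasts, held 147, 186, 148, 147, 160 and 163 CPM in members against 120, 122, 115, 123, 144 and 132.99 in the rest (0.35 ± 0.05, adjusted p = 7.41e-05). The ranges of PDGFRA did not overlap. PRRX1, a homeobox factor of limb and dermal mesenchyme, was 1.28-fold higher (adjusted p = 4.72e-05), COL1A2 1.3-fold (0.000282) and COL1A1 1.2-fold (0.00119). OSR1 was 1.2-fold higher in 2884 members chosen without it (adjusted p = 3.97e-05). DPT was 1.41-fold higher (adjusted p = 0.0143), TNFAIP6 1.46-fold (0.00747) and TWIST2, which acts in dermal precursors, 1.17-fold (0.0106). TWIST1, which keeps mesenchyme undifferentiated, reached 1.14-fold and did not pass (adjusted p = 0.0773). With the rest matched to members in depth, 7 of 10 markers passed: COL1A1 (adjusted p = 0.0835) and DPT (0.0713) no longer did. In that setting TWIST1, TWIST2 and COL1A2 were higher in 5 of 6 libraries, and TWIST2 passed narrowly (adjusted p = 0.0498, edgeR).

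**Figure D2:**
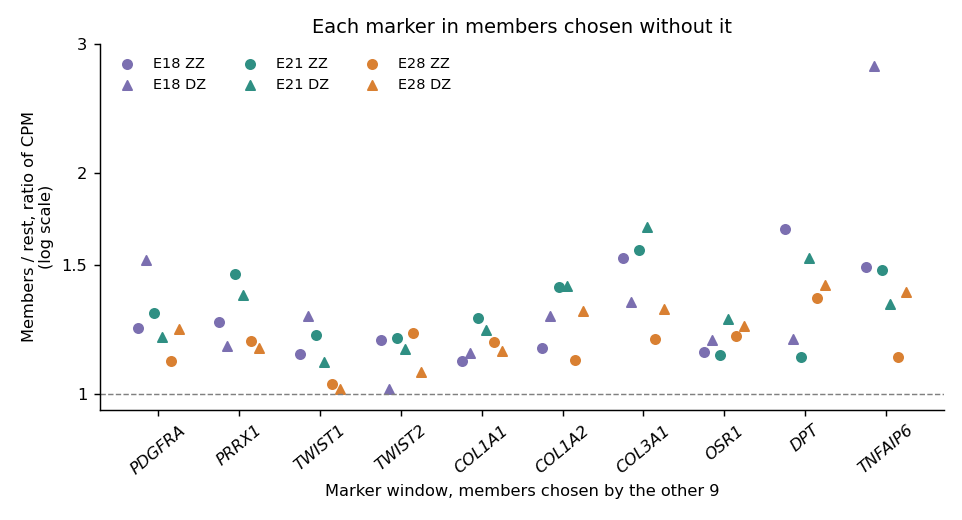
Ratio of CPM in members to CPM in the rest for each of the 10 marker windows (log scale), when the members were chosen by the other 9 markers; colours mark stages, circles ZZ and triangles DZ. Every point lies above 1, most of them under 1.5, and TNFAIP6 in E18 DZ stands highest at 2.80.

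Members were then compared with the rest at 22517 gene windows, with the markers and every window within 100 kb of one left out. By edgeR with library as a block, 868 windows were higher in members (3.85% of those tested) and 781 lower (3.47%), and the median log2 fold change over all windows was -0.01. Genes of the mesenchyme and of its matrix were called higher more often than this background, whereas muscle and neural genes were called lower or did not pass, and endothelial genes were called in both directions. With library sizes alone in place of TMM factors, 656 windows were called higher and 1101 lower, and with members chosen without OSR1 819 were higher and 925 lower. With the 2 kb before a gene's start alone 204 were higher and 379 lower, and with 3 times the mean share asked of a member 10 and 13, so lower windows outnumbered higher ones under these 4 settings. Without E21 ZZ or E21 DZ, 955 and 943 were called in all. A sum over members does not tell whether all of them or some of them differ from the rest, and the gene lists were written with earlier results of these data known.

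Matrix genes other than the markers stood out most. Of 31 windows tested, 11 were higher and 0 lower, and the median log2 fold change was 0.21; their summed CPM was 1.07 to 1.15 times that of the rest in the 6 libraries. LUM and DCN encode lumican and decorin, small leucine-rich proteoglycans that organise collagen fibrils. LUM held 8.44, 14.8, 26.7, 25.9, 36.2 and 38.2 CPM in members (library order as above) and 8.82, 10.4, 14.8, 14.6, 26.3 and 20.5 CPM in the rest. It was higher in 5 of 6 libraries, with E18 ZZ the exception (0.68 ± 0.12, adjusted p = 0.000252). DCN held 17.6, 12.3, 32.8, 43.4, 44 and 40.8 CPM in members and 12.3, 11.4, 16.6, 24.9, 35.9 and 30.0 CPM in the rest, and was higher in each library (0.59 ± 0.10, adjusted p = 0.000233). Both genes lie close together on chromosome 5 (DCN at 91678601 to 91713925, LUM at 91748871 to 91756381) beside KERA of the tendon list, which encodes keratocan (0.85 ± 0.26, adjusted p = 0.0408). KERA had no count at E18, where no peak was called in its window, and lost its call without any 1 of the 4 E21 and E28 libraries and without OSR1 in the choice (0.67).

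The remaining matrix genes differed less. COL6A3, a chain of the collagen VI that surrounds muscle fibres, held 46.8, 53.8, 48.4, 43.4, 46.6 and 53.2 CPM in members and 38.1, 32.6, 30.4, 36.4, 36.7 and 35.9 CPM in the rest. The classes of COL6A3 did not overlap (0.50 ± 0.08, adjusted p = 6.41e-05). FAP, a protease of activated fibroblasts, was 1.46-fold higher (adjusted p = 0.00126). The log2 fold changes of the crosslinking enzymes LOX and LOXL2 were 0.35 and 0.32, those of the elastic fibre genes ELN, FBN1 and FBLN5 were 0.32, 0.23 and 0.31, and those of the matricellular genes TNC and THBS2 were 0.29 and 0.34. All 7 passed the threshold and were higher in 6 of 6 libraries. ELN lost its call without OSR1 in the choice (0.14), FAP, LOX and THBS2 lost theirs with the rest matched in depth (0.44, 0.30 and 0.31), and THBS2 also without E21 ZZ, E21 DZ or E28 DZ (0.28 to 0.31). TNC turned with the 2 kb before the start alone (-0.033).

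Among mesenchyme transcription factors, 7 of 34 windows were higher and 1 was lower, with a median log2 fold change of 0.08. MEOX2, a homeobox factor of the somite and of limb muscle patterning, held 57.1, 66.6, 69.2, 64, 70.6 and 67.1 CPM in members and 47.9, 49.0, 53.0, 51.8, 59.1 and 52.4 CPM in the rest, higher in each library (0.36 ± 0.06, adjusted p = 0.000161). Next to it on chromosome 9 lies AGMO, an ether lipid enzyme, which had the lowest adjusted p of the windows named here: 114, 117, 110, 137, 101 and 139 CPM in members against 65.6, 57.3, 64.4, 86.6, 78.5 and 89.8 CPM in the rest (0.72 ± 0.06, adjusted p = 1.16e-08). The 2 classes of AGMO did not overlap. TCF15, a bHLH factor of the somite, was 1.22-fold higher (adjusted p = 0.0138) and lost its call without E21 ZZ or E28 DZ (log2 fold change 0.22 and 0.23) and with the rest matched in depth (0.24). PRRX2, MEOX1, TBX15, EBF2 and CREB3L1 were 1.13-fold to 1.22-fold higher. Of these, MEOX1 lost its call without E18 ZZ, E18 DZ or E21 ZZ (0.23 to 0.26), with the rest matched in depth (0.35) and with cells of other lists left out (0.21), TBX15 without E18 ZZ, E21 ZZ or E21 DZ (0.16 to 0.24) and CREB3L1 without E21 ZZ or E21 DZ (0.17 and 0.14), and TBX15 and CREB3L1 also without OSR1 in the choice (0.12 and 0.11) and under library-size scaling (0.20 and 0.15). TBX15 lost it with 4000 to 60000 counts as the limits (0.21) and CREB3L1 with the rest matched in depth (0.18) as well. ZEB2, a repressor of epithelial genes, was the window called lower (-0.22 ± 0.06, adjusted p = 0.0276), and its call was lost without E18 ZZ, E21 ZZ, E21 DZ or E28 DZ (-0.24 to -0.14), and with the 2 kb before the start alone its direction turned (0.13).

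Of the signalling genes of the mesenchyme, 9 of 28 windows were higher and 0 lower, with a median log2 fold change of 0.13. IGF1, a growth factor for muscle, held 50.6, 38.4, 65.1, 77.6, 64.9 and 72.1 CPM in members and 37.8, 32.6, 38.3, 45.8, 53.5 and 50.9 CPM in the rest. It was higher in each library (0.55 ± 0.07, adjusted p = 9.6e-06), but by 0.24 when OSR1 was left out of the choice. WNT2 was 1.36-fold higher (adjusted p = 0.00376) in 5 of 6 libraries, and lost its call without E28 ZZ (log2 fold change 0.36). Other Wnt ligands and a Wnt receptor, WNT5A, WNT11 and ROR2, were 1.14-fold to 1.16-fold higher. TGFBR2, a receptor of transforming growth factor beta, was higher by 0.32 on the log2 scale (adjusted p = 0.000114), and FGF10, BMP5 and the guidance ligand SLIT3 were 1.16-fold to 1.19-fold higher. WNT5A, WNT11, BMP5 and FGF10 each lost their call with the rest matched in depth (0.17 to 0.24) and without each of at least 2 single libraries. Calls were also lost by WNT11, BMP5 and FGF10 under library-size scaling (0.15 to 0.22), by WNT11 with cells of other lists left out (0.20) and by FGF10 without OSR1 in the choice (0.11). With 3 times the mean share asked of a member WNT11 and FGF10 turned (-0.18 and -0.010).

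Skeletal and tendon genes gave no common direction. In the sclerotome and cartilage list, COL11A1 and COL2A1, collagens of cartilage, were 1.19-fold and 1.16-fold higher while ACAN, the core proteoglycan of cartilage, was lower (-0.36 ± 0.08, adjusted p = 0.00613), and the call of ACAN was lost when OSR1 was left out of the choice (-0.15) or the rest was matched in depth (-0.22). COL11A1 lost its call with the rest matched in depth (0.20) and turned with 3 times the mean share asked of a member (-0.025). COL2A1 lost its call without E21 ZZ (0.18). Without OSR1 in the choice 4 of the 15 sclerotome and cartilage windows were higher and 0 lower, against 2 and 1 in the main choice. In the bone list SP7, an osteoblast factor, was the window called (-0.19 ± 0.06, adjusted p = 0.0329), but the call was lost when any library other than E21 ZZ was left out (-0.20 to -0.17) and when OSR1 was left out of the choice (-0.091). With the rest matched in depth, 12 of the 42 windows followed through the alternatives lost their call: TCF15, COL11A1, ACAN, SP7, KERA, ERG, NOTCH3, PAX6, NHLH1, SOX10, PAX2 and CD93. With cells of other lists left out, 5 of them did: SP7, KERA, ERG, NOTCH3 and PAX2. Of 9 tendon windows KERA alone passed.

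Windows of other cell types were mostly level or lower. In the committed muscle list 4 of 17 windows were lower and 0 higher (median log2 fold change -0.24): ACTC1, the actin of embryonic muscle (-0.77 ± 0.18, adjusted p = 0.00706), CHRNA1 and CHRND, subunits of the acetylcholine receptor of muscle (-0.70 ± 0.16 and -0.49 ± 0.11), and TTN, titin (-0.61 ± 0.18). CHRNA1 lost its call without E28 ZZ (-0.57) or without E28 DZ (-0.49), and ACTC1 in DESeq2 (-0.73, adjusted p = 0.216). TTN lost its call without any 1 of the E21 and E28 libraries (-0.59 to -0.47), with the rest matched in depth (-0.45) and without OSR1 in the choice (-0.54). Of 10 dermomyotome windows PAX7, a factor of muscle progenitors, was called, with a small difference (-0.16 ± 0.05, adjusted p = 0.0467), which was lost without any 1 of the E21 and E28 libraries (-0.15 to -0.14). Without OSR1 in the choice PAX7 kept its call and stood at -0.26. Of 11 endothelial windows 3 were lower and 1 higher. TIE1, a receptor of endothelial cells, held 31.1, 29.2, 31.3, 21.9, 19.4 and 13.2 CPM in members and 50.9, 49.1, 50.4, 29.2, 22.9 and 16.8 CPM in the rest, lower in each library (-0.49 ± 0.09, adjusted p = 0.000547). CDH5, the cadherin of endothelial junctions, and SOX18 were 0.700 and 0.782 times the rest, while ERG was 1.12-fold higher (adjusted p = 0.0255). The call of CDH5 was lost without E18 ZZ, E18 DZ or E28 ZZ (-0.49 to -0.41), and that of ERG without E18 DZ or E21 ZZ (both 0.14), under library-size scaling (0.13), with the rest matched in depth (0.19) and with cells of other lists left out (0.10). SOX18 lost its call without E18 ZZ or E28 ZZ (-0.35 and -0.31), with the rest matched in depth (-0.39) and without OSR1 in the choice, where it stood at -0.069. The neural lists had 2 of 11 progenitor windows lower (HES5 and PAX6) and 1 of 9 neuron windows (NHLH1), and SOX10 of the neural crest and PAX2 of the intermediate mesoderm were also lower. Apart from HES5, these neural, crest and mesoderm calls were each lost without any 1 of 4 libraries, and SOX10 and PAX6 also without OSR1 in the choice (-0.23 and -0.18, against -0.42 and -0.21). PAX6 lost its call in DESeq2 and with 4000 to 60000 counts as the limits too. None of the 11 epithelial and none of the 14 housekeeping windows passed in edgeR, and their medians were -0.07 and 0.00.

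Exceptions stood among the lists of other cell types. RGS5, a regulator of G protein signalling known from pericytes, held 23.4, 32.3, 45.5, 32.9, 19.6 and 9.69 CPM in members and 22.4, 17.3, 19, 22.7, 11.2 and 4.13 CPM in the rest, higher in each library (0.82 ± 0.13, adjusted p = 7.27e-05, and 0.50 without OSR1 in the choice). NOTCH3 of the same list was lower (-0.23 ± 0.06, adjusted p = 0.0268) but was lost without any 1 of the E21 and E28 libraries (-0.23 to -0.18), and 8 of 10 windows did not pass. PTPRC, the CD45 antigen of blood cells, was 1.45-fold higher in 6 of 6 libraries (adjusted p = 0.00395), and the other 6 blood windows did not pass. No doublet caller was run, and the part of mixed barcodes in these values was not tested. The same kind of rule for dermomyotome and muscle markers was met by 4.80% and 3.21% of E18 members (ZZ and DZ) against 2.14% and 1.70% of the rest, but by 0.676% and 1.75% of E28 members against 4.01% and 9.31%. In a rest matched in depth the shares were 2.40% and 3.21% at E18 and 3.38% and 9.71% at E28, so members of E18 DZ were level with it. Members that met such a rule for dermomyotome and muscle, endothelial, neural progenitor, neuron, epithelial or neural crest markers were left out in 1 alternative. Cells of the rest that met these rules stayed in, and 1455 windows were called. The pericyte and blood lists took no part in this alternative.

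**Figure D3:**
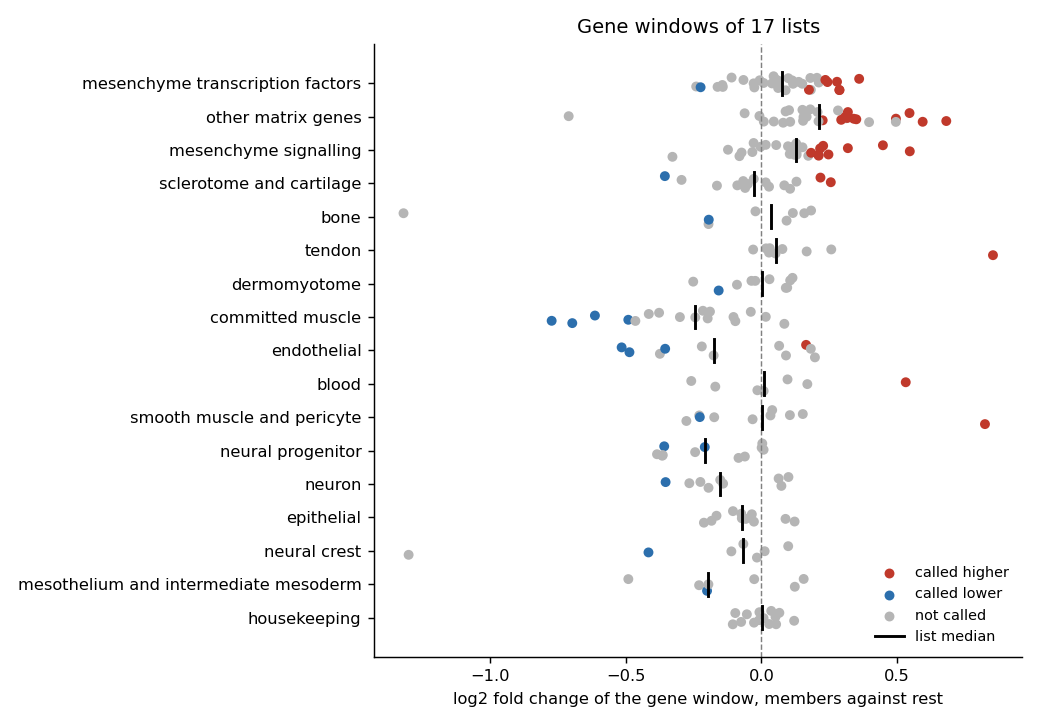
Log2 fold change of each tested gene window in 17 lists, members against rest; red and blue points passed edgeR's test (adjusted p under 0.05), grey points did not, and black bars are list medians. Matrix genes sit furthest to the right, with a median of 0.21, and committed muscle genes furthest to the left, with a median of -0.24.

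Outside the lists, the windows with the largest rises in all 6 libraries were KCNV2, ZC2HC1B, ASB9, AGMO, TRPV6, LHFPL1, TRPV5 and IL1R1. KCNV2, a potassium channel subunit, held 24.9, 35.3, 28.4, 22.9, 14.4 and 12.6 CPM in members and 14.3, 13.0, 11.5, 14.2, 10.1 and 6.65 CPM in the rest (0.97 ± 0.13, adjusted p = 1.56e-05, and 0.54 without OSR1 in the choice). IL1R1, the receptor of interleukin 1, held 32.6, 35.3, 90.3, 119, 139 and 176 CPM in members and 31.2, 26.3, 54.4, 78.8, 104 and 112 CPM in the rest (0.56 ± 0.06, adjusted p = 1.78e-06), and rose with stage in both classes. LHFPL1 was 1.53-fold, ASB9 1.68-fold and ZC2HC1B 1.81-fold higher. TRPV5 and TRPV6, calcium channels that lie side by side with overlapping windows, were 1.52-fold and 1.55-fold higher and share counts, and with the 2 kb before the start alone TRPV5 lost its call (log2 fold change 0.066) and TRPV6 turned (-0.073).

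Among windows outside the lists that were lower in all 6 libraries, with a mean of at least 10 CPM, the largest falls were those of GHRH, RAPGEF2, CD93, WDR72, GPR17, SYCP2, CSPG5 and GRAP2. They stood at 0.540 to 0.596 times the rest. Windows without 1 direction in all 6 libraries were not ranked. SYCP2 went from -0.76 to -0.45 on the log2 scale without OSR1 in the choice. CSPG5, a proteoglycan of neural tissue, held 21.1, 21.5, 18.3, 18.8, 12.8 and 12.3 CPM in members and 35.0, 42.1, 37.0, 29.5, 19.3 and 21.5 CPM in the rest (-0.75 ± 0.10, adjusted p = 7.18e-06). CD93, a receptor of endothelial cells, was 0.562 times the rest (adjusted p = 0.000494), a call lost with the rest matched in depth (-0.67, adjusted p = 0.0685). GRAP2, an adaptor of T cells, held 10.5 to 18.8 CPM in members and at least 20.8 in the rest, without overlap.

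**Figure D4:**
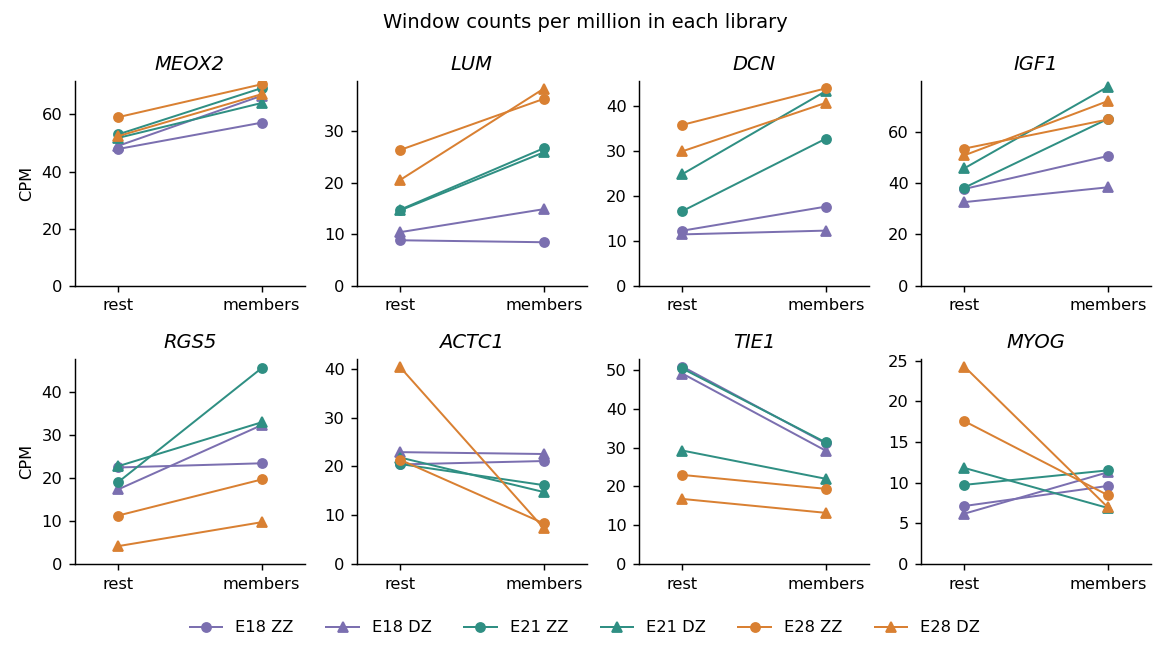
CPM of 8 gene windows in the rest and in members of each library; colours mark stages, circles ZZ and triangles DZ, and a line joins the classes of a library. Lines rise for MEOX2, DCN, IGF1 and RGS5 and fall for TIE1 in all 6 libraries, whereas ACTC1 and MYOG fall furthest in the 2 E28 libraries.

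At the level of single elements, 78385 regions with a peak in all 6 libraries were tested outside 100 kb of the markers. Members were higher at 3432 (4.38%) and lower at 3179 (4.06%). Called regions lay away from promoters: 6.82% of those higher and 7.74% of those lower overlapped the 2 kb before a gene start, against 17.7% of all tested, while introns held 40.7% and 45.5% against 35.6%. Counts at promoters as a whole hardly differed between the classes, at 0.963 (E28 DZ) to 0.999 (E21 ZZ) times the share of the rest. With members chosen without OSR1, 2760 regions were higher and 4042 lower, and with library sizes alone 2589 and 3526. With counts in 5 windows asked of a member the numbers were 2153 and 2671, with 3 times the mean share 0 and 112 in edgeR, with cells of other lists left out 2653 and 2810, and without E21 DZ 1511 and 1529. Under each of these 6 settings lower regions outnumbered higher ones. With 3 times the mean share the median log2 fold change over all regions was itself -0.599. Without E21 ZZ, E21 DZ or E28 ZZ, 3228, 3040 and 4027 regions were called in all. In matrix gene windows 18 of 126 regions were higher (14.3%) and 2 lower, in mesenchyme signalling genes 20 of 230 (8.70%) and 2, and in mesenchyme transcription factors 18 of 199 (9.05%) and 9. In committed muscle windows 0 of 59 regions were higher in edgeR and 8 lower (13.6%), 1 each in ACTC1, CHRNA1, CHRND, CHRNG, MEF2C, MYMK, RYR1 and TTN. The 18 matrix regions lay in 12 genes, with 4 in LOXL2 and 2 each in DCN, FBLN5 and TNC. SLIT3 held 6 of the 20 signalling regions, and EBF2, a factor of adipogenic and stromal precursors, held 5 of the 18 of transcription factors. In the sclerotome and cartilage list 10 of 80 regions were lower, 8 of them in the chondrogenic factors SOX5 and SOX6, and 1 was higher, in COL2A1. In endothelial windows 5 of 61 regions were lower (8.20%) and 0 were called higher in edgeR. The called region in ERG, an intron, was lower (-1.07), although the whole ERG window was higher.

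Regions were named by the largest differences among those with a mean of at least 10 CPM and 1 direction in all 6 libraries; some called regions outside this limit differed more, among them a region in the TTN promoter (-2.51) and one in an FBN1 exon (-2.56). Of the 5 named rises, a region 445732 bp from RGMA (chr7:85474319-85475792) held 4.22, 4.61, 9.54, 14.4, 25.8 and 36.9 CPM in members and 1.04, 1.23, 2.69, 6.18, 13.3 and 15.6 CPM in the rest (1.44 ± 0.17, adjusted p = 3.08e-05). Members were higher in each library, and the region opened with stage in both classes. A region 424319 bp from PDE3A (chr5:53162090-53163335) held 9.20, 19.5, 27.2, 31.1, 16.1 and 7.68 CPM in members and 5.14, 4.41, 9.19, 13.1, 9.94 and 3.56 CPM in the rest (1.29 ± 0.16, adjusted p = 4.43e-05). A region in an intron of MTERF1 (chr9:71552717-71554846) held 12.3, 13.8, 22.5, 29.5, 21.4 and 6.77 CPM in members and 4.06, 4.08, 9.80, 15, 11.07 and 3.20 CPM in the rest (adjusted p = 3.08e-05). Regions near PREX1 (190347 bp away, chr17:50160585-50161926) and TSHZ1 (23599 bp away, chr1:148879110-148881580) had adjusted p of 7.47e-05 and 6.28e-05 and were higher in each library.

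The 5 falls named under the same limit were intronic. A region in PKHD1, a gene of kidney and bile duct epithelium (chr7:45676925-45679522), held 6.90, 12.3, 3.18, 2.78, 3.41 and 1.83 CPM in members and 16.3, 27.1, 29.1, 25.6, 8.79 and 15 CPM in the rest (-2.13 ± 0.23, adjusted p = 1.61e-05). Regions in FAT3 (chr9:25233946-25235725), LIPG (chr1:99092274-99094781) and RGS3 (chr1:254153083-254157213) were lower, with log2 fold changes of -1.58 ± 0.18, -1.44 ± 0.22 and -1.43 ± 0.15, and a region in an intron of a gene without a name, with HDGFL1 the nearest named gene (chr7:18207642-18209119), had one of -1.38 ± 0.16. These 10 regions kept their call in every leave-one-library-out fit, in DESeq2 and when OSR1 was left out of the choice, where the RGMA region stood at 0.96 and the MTERF1 region at 0.64 against 1.249.

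The E-box, the 6-base site of bHLH factors, separated the called regions by its 2 central bases, and sequences are shown for that reason. In 300 bp at the centre of each region, read from Sscrofa11.1 on the plus strand, 4 forms were searched, each of which was looked for on both strands. CATCTG was present in 38.6% of regions higher in members, 26.4% of those lower and 24.2% of all tested, and CATATG in 10.8%, 4.28% and 5.45%. CAGCTG went the other way, with 21.6%, 38.9% and 24.1%, and CAGGTG differed little (19.7%, 22.3% and 23.2%). As background, TWIST proteins are known to bind E-boxes of the CATATG and CATCTG kind, and myogenic factors those of the CAGCTG kind. A match to these letters is a description of sequence and not a bound site, and the centre of a merged region need not be its summit. Below, capitals mark any of the 4 E-box forms in 3 regions that were higher (RGMA, PDE3A, MTERF1) and 2 that were lower (PKHD1, RGS3), each 300 bases, 5′ to 3′ on the plus strand.
Near RGMA, chr7:85474906-85475205: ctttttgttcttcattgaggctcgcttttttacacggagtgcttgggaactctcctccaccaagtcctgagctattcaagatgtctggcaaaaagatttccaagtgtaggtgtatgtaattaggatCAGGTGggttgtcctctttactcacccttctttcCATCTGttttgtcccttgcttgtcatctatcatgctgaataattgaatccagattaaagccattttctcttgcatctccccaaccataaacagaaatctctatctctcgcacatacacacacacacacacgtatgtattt
Near PDE3A, chr5:53162563-53162862: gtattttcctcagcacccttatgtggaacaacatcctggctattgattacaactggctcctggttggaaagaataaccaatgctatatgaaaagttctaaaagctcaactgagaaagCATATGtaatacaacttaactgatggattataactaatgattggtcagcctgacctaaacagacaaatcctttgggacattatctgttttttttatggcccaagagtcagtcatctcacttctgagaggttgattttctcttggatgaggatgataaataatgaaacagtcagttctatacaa
MTERF1 intron, chr9:71553632-71553931: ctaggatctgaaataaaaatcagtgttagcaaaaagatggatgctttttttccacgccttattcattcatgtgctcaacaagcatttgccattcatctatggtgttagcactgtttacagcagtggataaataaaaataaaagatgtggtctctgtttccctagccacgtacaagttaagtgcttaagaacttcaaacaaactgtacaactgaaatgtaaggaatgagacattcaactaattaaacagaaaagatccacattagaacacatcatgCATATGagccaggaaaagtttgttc
PKHD1 intron, chr7:45678074-45678373: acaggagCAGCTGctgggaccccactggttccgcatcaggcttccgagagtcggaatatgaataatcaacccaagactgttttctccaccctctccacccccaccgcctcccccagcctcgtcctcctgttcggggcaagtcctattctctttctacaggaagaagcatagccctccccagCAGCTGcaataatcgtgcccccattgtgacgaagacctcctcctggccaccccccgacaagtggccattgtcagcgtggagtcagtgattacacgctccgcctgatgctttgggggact
RGS3 intron, chr1:254154999-254155298: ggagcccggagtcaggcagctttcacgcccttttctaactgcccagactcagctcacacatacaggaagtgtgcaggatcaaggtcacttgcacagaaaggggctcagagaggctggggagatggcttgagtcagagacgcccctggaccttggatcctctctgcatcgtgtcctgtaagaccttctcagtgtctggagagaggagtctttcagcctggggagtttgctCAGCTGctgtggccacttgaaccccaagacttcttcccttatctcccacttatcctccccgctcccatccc
The RGMA sequence holds 1 CATCTG and 1 CAGGTG, and the PDE3A and MTERF1 sequences 1 CATATG each. The PKHD1 sequence holds 2 CAGCTG and the RGS3 sequence 1. The 5 named regions not printed do not divide in this way: near TSHZ1 there was 1 CATCTG and near PREX1 1 CAGGTG, while of the lower regions FAT3 held 1 CAGGTG and LIPG and HDGFL1 each held 1 CATATG. The shares over all called regions, not these examples, carry the difference.

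Other motifs differed in the same letters-only sense. The GATA form AGATAA was in 16.6% of higher regions, 11.3% of lower and 11.4% of all, the TEAD form CATTCC in 23.1%, 18.2% and 18.3%, the AP-1 form TGANTCA in 12%, 9.78% and 9.32%, the RUNX form TGTGGTT in 7.23%, 4.66% and 5.37%, and the homeodomain form TAATTA in 7.52%, 5.32% and 5.56%. The SOX forms ACAAAG and ACAATG were more frequent in lower regions, at 30.1% and 19.4% against 20.5% and 11.4% of all tested, with 22.3% and 12.1% in higher regions. The FOX form TGTTTAC (3.85%, 3.90% and 3.65%) and the MEF2 motif (3.18%, 3.27% and 3.04%) were at similar shares in the 3 sets. The spaced pairs of CANATG and TAAT were rare, at 0.350%, 0.437% and 0.466% of higher regions for gaps of 5, 6 and 7 bases and 0.237%, 0.283% and 0.216% of all. The ETS motif was in 0.175% of higher, 0.346% of lower and 1.01% of all regions, the EBF motif in 0.845%, 1.73% and 1.22%, and the NFI motif in 0%, 0.126% and 0.0408%. Mean base composition was 47.0% G and C in higher regions, 52.7% in lower regions and 52.7% in all tested. Among introns and distal sequence alone, CATCTG stood at 39.8%, 27.8% and 27.5%, CATATG at 11.6%, 4.58% and 6.65% and CAGCTG at 22.4%, 39.7% and 25.5%, at 46.0%, 51.5% and 49.3% G and C.

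**Figure D5:**
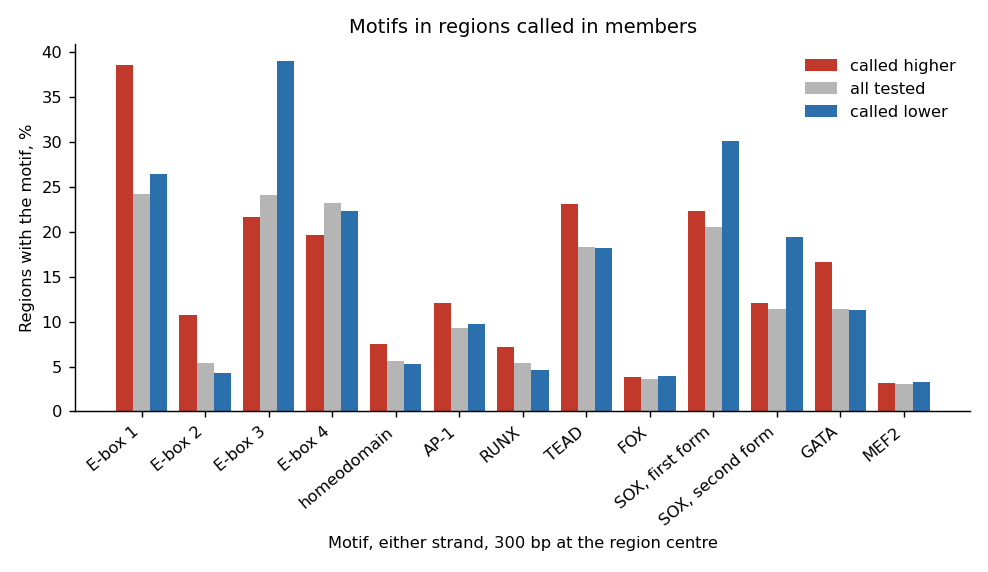
Share of regions with a motif in the central 300 bp, in percent, for regions called higher in members (red), all tested (grey) and called lower (blue). E-box 1 is CATCTG, E-box 2 is CATATG, E-box 3 is CAGCTG and E-box 4 is CAGGTG. E-box 1 reaches 38.6% in higher regions and E-box 3 reaches 38.9% in lower regions, against 24.2% and 24.1% of all tested.

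The difference between members and rest was next compared between stages, by the interaction of class and stage. From E18 to E28 it became more positive at 187 windows (0.83%) and more negative at 251 (1.11%). Muscle genes led the negative side: 6 of 17 committed muscle windows were called more negative and 0 more positive. MYOG, myogenin, held 9.59, 11.3, 11.5, 6.88, 8.45 and 6.95 CPM in members and 7.11, 6.17, 9.72, 11.8, 17.5 and 24.3 CPM in the rest. Members were above the rest in both E18 libraries and below it in both E28 libraries (interaction -2.00 ± 0.39 on the log2 scale, adjusted p = 0.000107). ACTC1 held 21.1, 22.5, 16.1, 14.7, 8.31 and 7.32 CPM in members and 20.4, 22.9, 20.5, 21.8, 21.3 and 40.3 CPM in the rest (interaction -1.86 ± 0.28, adjusted p = 1.67e-07). The determination factors MYOD1 and MYF5 (-1.25 ± 0.27 and -1.17 ± 0.25, both adjusted p = 0.00101), MYMK, a fusogen (-0.69 ± 0.15), and RYR1, a calcium channel (-0.73 ± 0.21), followed. ARPP21 and MYPN, a sarcomere protein, were at -1.93 ± 0.35 and -1.82 ± 0.33. POU5F2 was at -2.04 ± 0.60 (adjusted p = 0.0369), with 0.545 and 0.549 CPM in E28 members. In the dermomyotome list EYA2 and MET were more negative as well (-0.59 ± 0.11 and -0.68 ± 0.19). The calls of MYOG were lost without E18 DZ (-1.78) or E28 DZ (-1.66), of ACTC1 without E28 DZ (-1.35) and of MYPN without E18 DZ (-1.47), and POU5F2 lost its call without any 1 of the E18 and E28 libraries, in DESeq2 and without OSR1 in the choice (-0.82), where ARPP21 stood at -1.15. MYOD1 lost its call without E18 ZZ, E18 DZ or E28 DZ (-1.29 to -1.19), MYF5 without E18 DZ or E28 DZ (-1.03 and -0.95) or OSR1 in the choice (-0.66), MYMK without E18 ZZ or E28 DZ (-0.54 and -0.58), RYR1 without any 1 library (-0.75 to -0.70), cells of other lists (-0.59) or OSR1 (-0.55), and MET without any 1 of the E18 and E28 libraries (-0.73 to -0.59) or OSR1 (-0.32). With the rest matched in depth MYOD1, MYF5, MYMK, RYR1, POU5F2 and ARPP21 lost theirs (-1.21, -1.08, -0.47, -0.90, -1.87 and -1.63). POU5F2 lost its call with cells of other lists left out as well (-2.09), and EYA2 turned with the 2 kb before the start alone (0.67). Summed over the list, committed muscle windows of ZZ members were at 1.04, 0.986 and 0.771 times the rest in order of stage, and those of DZ members at 0.963, 0.942 and 0.671 times. At E18 and E21 the members thus held muscle windows at nearly the level of the rest.

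The mesenchyme lists had too few calls to set against the shares over all windows (0.83% more positive, 1.11% more negative). Their median interactions were -0.083 (transcription factors), 0.0019 (matrix) and -0.026 (signalling), next to -0.47 for committed muscle. No window of the 34 mesenchyme transcription factors was called at E28 against E18, and 1 each of the matrix and signalling lists was more negative, SPARC (-0.82 ± 0.23, adjusted p = 0.0289) and PDGFC (-0.44 ± 0.12, adjusted p = 0.0153). Both calls were lost with the rest matched in depth and with cells of other lists left out, that of SPARC without any 1 of the E18 and E28 libraries (-1.09 to -0.61) and that of PDGFC without E18 ZZ, E18 DZ or E28 DZ (-0.48 to -0.37), and PDGFC turned with the 2 kb before the start alone (0.18) and with 3 times the mean share asked of a member (0.047). Summed matrix windows of members stayed within 1.07 to 1.15 times the rest at every stage. Among the positive interactions, KDR, a receptor of endothelial cells, was at 0.82 ± 0.18 (adjusted p = 0.00101), with members below the rest in both E18 libraries (27.2 against 46.1 and 51.2 against 53.8 CPM) and above it in both E28 libraries (58.3 against 47.2 and 55.4 against 39.3 CPM). The call of KDR was lost without E18 ZZ (0.50), E28 DZ (0.73) or OSR1 in the choice (0.32). In the neural and crest lists, PAX6 was called more positive (0.42) and SOX10 more negative (-0.90). Both calls were lost with the rest matched in depth (0.56 and -1.27) and with cells of other lists left out (0.45 and -0.75). That of SOX10 was also lost without any 1 library (-1.12 to -0.62) and without OSR1 in the choice (-0.62). That of PAX6 was also lost without any 1 library other than E18 ZZ (0.32 to 0.47). PAX6 lost it too under library-size scaling (0.39) and with 4000 to 60000 counts as the limits (0.40). The largest positive interactions were those of FAM181A, DCT, OLFM4, MCTS1 and ADRA1A, at 1.66, 1.59, 1.52, 1.18 and 1.14. OLFM4, a secreted glycoprotein, held 23.4, 24.1, 67.5, 72.1, 57.8 and 73.7 CPM in members and 45.5, 62.4, 69.7, 71.3, 50.1 and 53.5 CPM in the rest, below the rest in both E18 libraries. FAM181A was below the rest in 5 of 6 libraries, with E28 ZZ the exception. The E18 members numbered 250 and 187 cells, and the count of calls hung on single libraries: 67 windows were called without E18 DZ, 61 without E28 DZ and 291 without E28 ZZ. Of these 5, FAM181A, DCT, MCTS1 and ADRA1A lost their call without E18 DZ (1.22, 1.39, 0.91 and 0.97). DCT also lost it without E28 DZ (1.54), MCTS1 without E28 ZZ or E28 DZ (1.21 and 1.15) and ADRA1A without E28 ZZ (1.05), and all 3 with the rest matched in depth (1.45, 1.15 and 0.82), MCTS1 also with cells of other lists left out (1.06). OLFM4 kept its call without each library, but with the 2 kb before the start alone its value turned to -1.64. When OSR1 was left out of the choice, MCTS1 and ADRA1A lost their call (0.14 and 0.37), and FAM181A and DCT kept it at 1.005 and 0.96.

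From E18 to E21, 18 windows (0.0799%) became more positive and 15 (0.0666%) more negative. OLFM4 was again among them (1.16 ± 0.18, adjusted p = 5.88e-06, but -1.31 with the 2 kb before the start alone), and NELL1, a secreted osteogenic protein, was called at both later stages (0.76 ± 0.14 at E21, 0.97 ± 0.14 at E28); both comparisons share the E18 libraries, and without OSR1 in the choice 7 of the 10 windows named for E21 lost their call: NELL1 (0.17), LIX1 (0.26), PCBD2 (0.17), EIF3B (0.46), CLEC3B (-0.64), DTX1 (-0.51) and ATP10B (-0.34). Over all windows tested, 18 differences called at E21 were positive and 15 negative, and without OSR1 in the choice 11 and 27. With the rest matched in depth, 9 of the 10 lost their call, OLFM4 being the exception, and DTX1 and ATP10B turned with 3 times the mean share asked of a member (0.59 and 0.77). EBF1 was the 1 window of the mesenchyme transcription factors called at E21 (-0.41 ± 0.10, adjusted p = 0.0259), and its call was lost without any 1 library (-0.44 to -0.38), with the rest matched in depth (-0.48) and without OSR1 in the choice (-0.12). LIX1 was called at E21 (0.87 ± 0.17), with 70.7 and 74.2 CPM in members and 45.2 and 59.7 in the rest. On the negative side, CLCA2, CLEC3B and the window of the microRNA gene MIR9-3 were at -0.85 ± 0.17, -1.19 ± 0.27 and -1.32 ± 0.33. MIR9-3 kept its call in 5 alternatives and lost it in 11. In DESeq2, 4 of the 10 windows named for E21 lost their call. Without E18 DZ no window was called by edgeR (1858 had an unadjusted p under 0.05), and without E18 ZZ or E21 ZZ 9 were.

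Between breeds no window passed the threshold for a change in the difference of members from the rest, in edgeR or DESeq2 (0.0% of 22517; 479 and 663 windows had an unadjusted p under 0.05). Within members alone, DZ against ZZ with a term for stage called 1 window of 20730 (0.00482%), SENP3, named after its value was seen, in edgeR, and 6 to 68 when 1 library was left out. Each breed had 3 libraries, 1 per stage.

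Within members, E28 was compared with E18 across 20730 windows, with 2488 higher at E28 (12%) and 3070 lower (14.8%). Matrix genes were again on the higher side: 15 of 31 windows were higher at E28 and 2 lower. OGN, 1 of the 15, had no count in members of either E18 library. LUM and DCN were higher by 1.71 ± 0.28 and 1.48 ± 0.27 on the log2 scale (adjusted p = 0.00186 and 0.00318, edgeR). Of the tendon list 4 of 9 were higher and 0 lower, but 1 of the 4 was KERA, whose window held no called peak at E18 and so could only rise, while in the mesenchyme transcription factors 2 of 34 were higher and 10 lower, with ZEB2 at -1.38 ± 0.19. In the dermomyotome list 4 of 10 were lower and 0 higher. Peak calls bear on these values, since the E28 libraries covered less sequence: called peaks in the ZEB2 window spanned 38753 bp in E18 ZZ but 15005 bp in E28 ZZ (DZ, 37951 bp and 14915 bp), and those in the LUM window 2374 bp and 2604 bp (DZ, 2446 bp and 3099 bp). Among windows whose covered length agreed within 1.5 times, 5 of 10 matrix windows were higher at E28 and 0 lower, and 1 of 10 transcription factor windows was higher and 0 lower, next to 7.86% higher and 7.49% lower among all 7210 windows under this limit. The dermomyotome list had 3 windows under this limit, and all 3 were lower at E28. Without E18 DZ 2872 windows were called in all. With covered length as an offset, 9297 of all windows were higher and 235 lower, and the median log2 fold change over all windows was 0.577. Under this offset LUM stood at 1.47, and DCN and ZEB2 lost their call (0.63 and -0.028). DCN thus lay near that median and ZEB2 below it. In the dermomyotome list 2 of 10 windows were lower and 1 higher under this offset. Stage, tissue and peak calling cannot be told apart here.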

How the data were processed

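Chromatin accessibility was measured by single-cell ATAC-seq in 6 libraries of pig somites and myotomes, 1 per stage and breed, each a pool of 5 embryos. The authors aligned reads to Sscrofa11.1 with Cell Ranger ATAC (1.2.0 per the file headers), called peaks per library and deposited raw counts of Tn5 cut sites per peak and barcode, with no normalization; the submitters' processing notes also name Seurat 3.1.1 and Signac 0.2.2. The study's further filters on barcodes were not used here, and no doublet caller was run.

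Peaks overlapping a gene window (RefSeq annotation release 106, gene body plus 2 kb before its start) by at least 1 bp were summed, and peaks of the 6 libraries were merged into 294825 regions, of which 78533 had a peak in all libraries. Kept libraries held 89816504 to 133037579 counts, and members 1953171 to 7338283. Between 113 and 157 kept barcode sequences were shared by a pair of libraries, and at most 2 members. Counts were summed per library and class (members, rest) and tested with edgeR 4.0.16 (R 4.3.3): quasi-likelihood F test, TMM, filterByExpr, library as a block, total peak counts as library size, Benjamini-Hochberg adjusted p under 0.05. Stage and breed entered as interactions with class (3 and 4 residual degrees of freedom) or, within members, additively (2). Libraries differ in sow, embryos and stage, and none is repeated. With library as a block, p-values measure how much the difference of members from the rest varies between libraries. Within members, they measure the spread that the stage and breed terms leave over. CPM is relative to all peak counts of a class. Each SE was the log2 fold change divided by the root of its F value. Scripts were tested on simulated counts. Motif shares are descriptions.

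The members and gene lists were chosen with earlier results of these data known. Of the 8 listed genes not in the annotation's windows none was tested. Named windows were the 10 markers; in each list the 2 called higher with the largest log2 fold change and the 1 called lower with the largest fall (1 and 2 in lists of other cell types); outside the lists, among named genes with a mean of at least 10 CPM and 1 direction in all 6 libraries, the 8 largest rises and falls; and for each interaction and for regions the 5 largest on each side. Other list members are named from complete counts. Alternatives were DESeq2 1.42.0, library-size scaling, no filter, 5 windows, 3 times, 4000 to 60000 counts, cells of other lists left out, a rest matched in depth (bins of 1000 counts), 2 kb before the start alone, no block, each library left out, and, added after seeing the data, a choice without OSR1. Cells of other lists were members that also met the rule of the muscle, endothelial, neural, epithelial or neural crest lists. The rest was kept whole there.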

Additional observations from a re-analysis of the deposited data

Results flagged for a closer look

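Listed here are 20 interactions of class and stage, where members and rest differed in another way at E28 or E21 than at E18. They were tested with edgeR (log2 scale, positive where members gained on the rest). These were the 5 largest on each side among called windows with a mean of at least 10 CPM. In all, 438 windows were called at E28 and 33 at E21. At E28 against E18 the values were 1.66 for FAM181A, 1.59 for DCT, a melanin enzyme, 1.52 for OLFM4, 1.18 for MCTS1 and 1.14 for ADRA1A. On the negative side they were -2.04 for POU5F2, -2.00 for MYOG, -1.93 for ARPP21, -1.86 for ACTC1 and -1.82 for MYPN. At E21 against E18 they were 1.16 for OLFM4, 0.92 for PCBD2, 0.87 for LIX1, 0.76 for NELL1 and 0.72 for EIF3B, and -1.32 for MIR9-3, -1.19 for CLEC3B, -1.01 for DTX1, -0.85 for CLCA2 and -0.77 for ATP10B. All rest on the 250 and 187 members of the E18 libraries. With the 2 kb before the start alone OLFM4 turned to -1.64 and -1.31, and with 3 times the mean share DTX1 and ATP10B turned to 0.59 and 0.77. With the rest matched in depth 5 of the 10 at E28 (DCT, MCTS1, ADRA1A, POU5F2 and ARPP21) and 9 of the 10 at E21 lost their call, and without E18 DZ 7 and 10 did. With members chosen without OSR1, 10 of the 20 lost their call: at E28 MCTS1 (0.14), ADRA1A (0.37) and POU5F2 (-0.82), and at E21 PCBD2 (0.17), LIX1 (0.26), NELL1 (0.17), EIF3B (0.46), CLEC3B (-0.64), DTX1 (-0.51) and ATP10B (-0.34).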

How the results depend on the processing

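Of 42 named windows compared between members and rest, each kept its direction in the alternatives that gave it a value (17 for 33 windows and 16 for 9, which had none with 2 kb before the start alone) except ZEB2 (0.13 with 2 kb before the start alone), TRPV6 (-0.073, same setting) and COL11A1 (-0.025 with 3 times), and the 10 named regions kept theirs in 16. Among the stage differences OLFM4 reversed with 2 kb before the start alone (-1.64 at E28, -1.31 at E21) and DTX1 and ATP10B with 3 times (0.59 and 0.77). Among these windows, stage differences, regions and markers, calls were lost in 65 values with 3 times, 52 without the block and 28 matched in depth. They were lost in 26 with 2 kb alone, 15 without OSR1, 14 to 22 without 1 library and 12 with 5 windows. Windows called between members and rest numbered 1649, and 23 with 3 times (383 members), 770 with a rest matched in depth, 583 with 2 kb before the start alone, 0 without the block (611 with an unadjusted p under 0.05, edgeR) and 943 to 1579 without 1 library. Regions numbered 6611, and 112 with 3 times, 2487 matched in depth, 0 without the block (4467 unadjusted) and 3040 to 6511 without 1 library. At E28 against E18 438 interactions became 282 with 5 windows, 3 with 3 times, 263 without cells of other lists, 103 matched in depth, 62 with 2 kb before the start alone and 61 to 400 without 1 library. At E21 33 became 1, 17, 4 and 3 (3 times, without cells of other lists, matched in depth, 2 kb alone) and 0 to 16 without 1 library. Within members, 5558 windows between E28 and E18 became 3514 with DESeq2, 32 with 3 times, 1425 with 2 kb alone, 9532 with the covered-length offset, 1107 of 7210 at similar covered length and 2872 to 4879 without 1 library; the 1 breed call became 0 with 3 times, 2 kb alone or no stage term and 6 to 68 without 1 library. The member share of 4.36% became 2.79% with 5 windows, 0.651% with 3 times, 3.77% without cells of other lists, 4.61% at 4000 to 60000 counts, 6.49% thinned and 4.90% without OSR1. Some choices and filters leave fewer cells or windows, and why calls were lost was not tested. With 3 times, the median log2 fold change moved from -0.006 to -0.097 over windows and from -0.011 to -0.599 over regions. Members and rest of a library were paired by the library block, and the counts without this replicate block are those given above; every library carries the number 1 within its own group, which pairs no libraries with each other.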
